A study of Mus musculus with 4 samples.

Results

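S100 proteins are small calcium-binding proteins with a pair of EF-hand motifs, and 10 genes of the family were chosen by name: S100a1, S100a3, S100a4, S100a6, S100a8, S100a9, S100a10, S100a11, S100a14 and S100b. All probe sets carrying 1 of these symbols were taken, which gave 12 probe sets for 9 of the 10 genes, of 12393 genes with a probe set of their own on the array. The probe set of S100a11 is annotated with 3 gene symbols, including a pseudogene of S100a11, so no level is given for that gene. S100a1, S100a10 and S100b had 2 probe sets each and the other 6 genes had 1.

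Expression was measured in RNA from mammary tissue of female, nulliparous mice on the C57BL/6 background, either Sca-1 knockout (Sca-1 KO) or wild-type littermates, all on standard rodent chow. Sca-1, stem cell antigen-1, is an antigen on the surface of stem and progenitor cells of several tissues, and its level was not checked on these arrays here. The glands came from mice of 6 weeks, and the group labels name no treatment for them. The tumors, also wild type and Sca-1 KO, had been induced with MP-DMBA, that is 15 mg of the depot progestin MP under the skin and then 4 weekly doses of 1 mg of the hydrocarbon carcinogen DMBA by gavage; the sources used here do not give the age at which tumors were taken. The protocol text attaches this treatment to all samples, and only the tumors' own labels name it. Each of the 4 groups was RNA pooled from 5 mice on 1 Affymetrix array, so there is no replicate, no test was possible, and each value below compares 2 arrays.

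The S100 family divides into intracellular members and members that are also secreted. S100a8 and S100a9 form the heterodimer calprotectin, a major cytosolic protein of neutrophils that is also induced in inflamed or hyperproliferative keratinocytes and, once released, acts on receptors such as Tlr4 and Ager (RAGE). S100a4, known as fibroblast-specific protein or metastasin, binds non-muscle myosin and is made by fibroblasts and macrophages, S100a10 binds annexin A2, S100a6 (calcyclin) is made by epithelial cells and fibroblasts, and S100a14 is an epithelial member. S100a1 is a protein of striated muscle that regulates the ryanodine receptor, S100a3 is a protein of the hair cuticle, and S100b is made by glial and Schwann cells and by adipocytes.

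Of the 10 genes, 9 lie on mouse chromosome 3 and S100b lies on chromosome 10. In the RefSeq gene order of GRCm38.p6, S100a1, S100a13, S100a14, S100a16, S100a3, S100a2, S100a4, S100a5, S100a6, S100a7a, S100a8 and S100a9 follow one another with no other protein-coding gene between them, and S100a11 and S100a10 are neighbours further along the same chromosome. Promoter windows from 250 bases before to 50 bases after the RefSeq start were at hand for 8 of the 10 genes, with 4 windows for S100a3; S100a10 and S100a14 had none. The 250 bases before the start of S100a8 and S100a9 are shown because these genes moved together on the arrays. Like theirs, the signals of S100a4, S100a10, S100b and the dim S100a3 were highest in the wild-type tumor. Of these genes, only the 250 bases of S100a4 are shown as well. They are written 5′ to 3′ on the gene's strand from RefSeq (GRCm38.p6), S100a8 at chr3:90668821-90669070 on the plus strand, S100a9 at chr3:90695722-90695971 on the minus strand and S100a4 at chr3:90603520-90603769 on the plus strand, with the motif matches described below in capitals.
S100a8: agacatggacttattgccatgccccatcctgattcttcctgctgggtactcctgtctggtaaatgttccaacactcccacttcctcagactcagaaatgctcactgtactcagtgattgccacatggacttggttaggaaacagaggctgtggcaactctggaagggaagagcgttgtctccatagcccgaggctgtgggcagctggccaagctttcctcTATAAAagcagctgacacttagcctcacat
S100a9: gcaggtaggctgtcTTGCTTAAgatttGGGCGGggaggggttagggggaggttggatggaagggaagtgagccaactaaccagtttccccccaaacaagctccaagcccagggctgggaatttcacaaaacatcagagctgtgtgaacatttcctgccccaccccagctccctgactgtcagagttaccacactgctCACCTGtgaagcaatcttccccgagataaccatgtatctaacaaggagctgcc
S100a4: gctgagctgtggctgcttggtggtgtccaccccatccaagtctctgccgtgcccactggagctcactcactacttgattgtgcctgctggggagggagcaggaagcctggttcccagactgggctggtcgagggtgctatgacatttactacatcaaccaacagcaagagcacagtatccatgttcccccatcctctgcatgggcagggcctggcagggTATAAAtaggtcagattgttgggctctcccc

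The windows were searched for 6 motifs on both strands, and no match found overlaps another. The TATA box, which places the start of transcription in many regulated genes, was searched as TATAAA. It began at position -30 from the start in S100a8 and at -31 in S100a4. In S100a9 it began at position 1 of the annotated transcript, outside the stretch shown, and of the 4 windows of S100a3 it was found in 1, at -52. Of all 32851 promoter windows in the table, 13.6% held this motif. Sites of C/EBP factors, which act in myeloid and epithelial differentiation, were searched as TTNNGCAA, held by 10.8% of all windows. The S100a9 window had such a match on the opposite strand at -236. The box of SP and KLF factors, GGGCGG, held by 35.7% of windows, was at -223 of S100a9, at -116 in 1 window of S100a3 and at -64, -52 and -24 of S100a11. The E-box of ZEB and SNAI factors, CACCTG, held by 20.2%, was at -53 of S100a9 and in 2 windows of S100a3, at -168 and, on the opposite strand, at 27. Matches to the AP-1 site, TGANTCA, held by 7.81% of windows, occurred among the 10 genes at -136 and -38 of S100a11 alone, and an NF-kB type site (GGG, any 2 bases, TTTCC), held by 1.63%, was in none of the 11 windows. These matches describe letters in a window and no binding was measured.

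The signals of the 4 arrays were on a common scale, with a mean of 500 after the outer 2% of probe sets at each end were left out, and their medians lay between 151 and 199. Values below are deposited signals, in arbitrary units, and differences are on the scale log2(signal + 27.3), which understates the difference of dim genes. A signal of 168, the median of all values, is called the floor; it is a reference line and no detection call. "Higher" and "lower" as counts mean at least 2-fold, a log2 difference of 1. To show how far readings of 1 RNA can part, genes with at least 2 probe sets at or above the floor on at least 1 array were used (2764 genes). The 2 brightest were taken for each gene, and probe sets below the floor on all arrays were left out. From how far the 2 probe sets of a gene parted, the spread of a single probe set's log2 difference was estimated. It is smaller than the spread between 2 probe sets. It was 0.26 between the glands and 0.18 between the tumors, and 0.52 (wild type) and 0.48 (knockout) where tumor was set against gland. Variation among mice is not part of this spread. A sign of RNA integrity, the beta-actin control signal at the 3' end over that at the 5' end, was 2.35 on the wild-type gland array and between 1.23 and 1.61 on the others, and its part in the results below was not tested. A level of RNA in tissue cannot be told apart as more cells of a type or more RNA per cell.

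**Figure D1:**
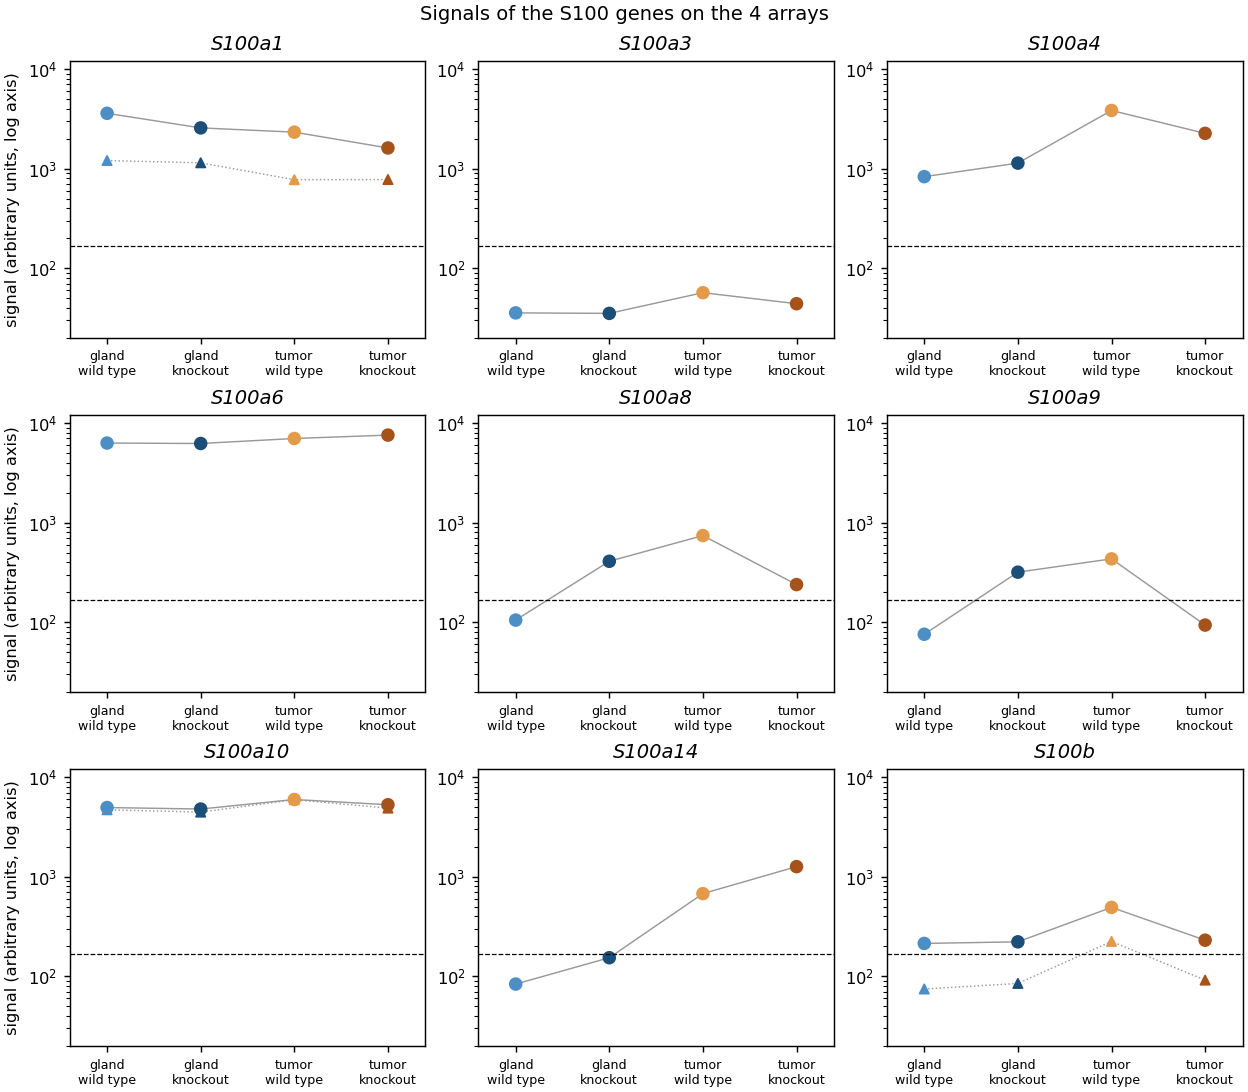
Signal (arbitrary units, log axis) of the 9 measured S100 genes on the 4 arrays, 1 point per probe set and array. Circles are the probe set that stands for the gene, triangles the other probe set, the dashed line is the floor of 168, and lines only join points of 1 probe set. S100a8 and S100a9 are highest in the wild-type tumor and next highest in the knockout gland, S100a14 is high in both tumors, and S100a6 and S100a10 are nearly level.

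Of the 9 measured genes, 5 were at or above the floor on all 4 arrays (S100a1, S100a4, S100a6, S100a10 and S100b), S100a8 was so on 3 arrays, S100a9 and S100a14 on 2, and S100a3 on none. The signals of S100a3 were 35.6 (wild type) and 35.2 (knockout) for the glands and 56.8 (wild type) and 44.0 (knockout) for the tumors, so its differences compare values near background and are not read. Of 11 measured genes of the hair shaft and follicle, where S100a3 protein is known, 10 were below the floor in the gland of wild-type and 11 in that of knockout mice, and 8 and 10 in their tumors. Their summed signal was 456 and 363 for the glands and 1072 and 563 for the tumors. Krt25, a keratin of the hair follicle's inner root sheath, was at 293 in the wild-type tumor and between 0.7 and 10.6 on the other arrays.

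In the gland, S100a8 and S100a9 were more abundant in the knockout, and the other S100 genes lay within 2-fold. The S100a8 signal was 105 for wild type and 409 for knockout, 3.30-fold higher. S100a9 had 75.8 and 318, 3.35-fold higher. Both genes lay under the floor for wild type and above it for knockout, and with signals below the floor raised to it the folds were 2.24 and 1.77. So 2 of 9 measured genes were higher and none was lower, where 1.19% of all 12393 genes, or 1.12% of the 8286 genes at or above the floor on at least 1 array, were higher. The median over the 9 genes was 0.05, against 0.04 over all measured genes.

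S100a14, an epithelial member, had 83.6 (wild type) and 154 (knockout), both below the floor, a log2 difference of 0.71. S100a4 had 830 and 1135, a log2 difference of 0.44. S100a6, at 6295 and 6229.5, and S100a10, at 4946.5 and 4777, differed by -0.01 and -0.05 in log2. S100b differed by 0.05, with 214 and 222. The signs of these 3 differences turned under other scalings. For S100a1 the 2 probe sets did not give the same size of difference: the one that stands for the gene had 3589 and 2562, a log2 difference of -0.48, and the other had 1204 and 1143, a difference of -0.07.

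Neutrophil genes were mostly dim in both glands. Of 22 measured, 17 were positive in sign in the knockout gland and 5 were past 2-fold, none lower, with a median log2 difference of 0.50. Over all 12393 measured genes 6919 were positive and 1.19% were higher. The lower quartile of all signals was 34.6 on the wild-type and 44.2 on the knockout gland array. The part of this shift of dim signals in the counts was not tested. Of the 8 neutrophil genes at or above the floor on at least 1 array, 1 was past 2-fold, with a median of 0.21. Of the 5 past 2-fold, Ngp alone was above the floor in a gland. Ngp, a granule protein, went from 70.8 to 264, and Camp, the cathelicidin, from 13 to 72.5. Elane, neutrophil elastase, had 19.9 and 72.1, and Chil3, a chitinase-like protein, 6.2 and 63.3. The other gene of the list past 2-fold was Itgam, an integrin subunit shared with macrophages, at 44.0 and 121. Among defining markers, Csf3r, the receptor for granulocyte colony-stimulating factor, was at 58.6 and 92.3 and the chemokine receptor Cxcr2 at 9.8 and 13.2, below the floor in both glands. In all, 19 of the 22 genes for wild type and 17 for knockout were below the floor. The genes of the list above the floor in both glands were less abundant in the knockout, within 2-fold. They were Lcn2 (2340.5 and 2001), Ltf (1623 and 1222) and Prtn3 (506 and 415). The summed signal was 5165 and 5038, most of it from Lcn2 and Ltf, which epithelium also makes. The part of neutrophils in the S100a8 and S100a9 difference was not tested.

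Of the other leukocyte lists, that of B and plasma cells had most genes past 2-fold between these glands. Of 15 measured macrophage genes, 14 were positive and 1 was higher, the scavenger receptor Marco at 64.0 and 423, and the list median was 0.37. Of 10 B and plasma cell genes 8 were higher, with a median of 1.42, and of 11 T and NK cell genes 1 was higher, with a median of 0.59. Of 24 measured cornified envelope and S100-fused genes, the proteins of keratinising skin, 22 were below the floor in each gland, and 2 were higher in the knockout, the keratin Krt6a at 63.8 and 289 and the crosslinking enzyme Tgm1 at 69.4 and 220. The median of that list was 0.02.

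In the tumors the order of the genotypes was turned for S100a8 and S100a9. The S100a8 signal was 741 for wild type and 239 for knockout, 2.89-fold lower. S100a9 had 433 and 93.7, 3.80-fold lower, and 2.36-fold lower with the knockout signal raised to the floor. S100b was lower too, close to the threshold, at 492 and 230.5 (2.01-fold), and its second probe set gave 224 and 91.6 (2.11-fold). With the median of all values as offset the S100b difference was -0.73, and with quantile normalization -0.99, both short of 2-fold. These 3 of 9 measured genes were lower and none was higher, where 1.79% of all measured genes and 1.93% of those at or above the floor were lower. The median over the 9 genes was -0.52, against 0.01 over all measured genes.

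S100a4 had 3832 for wild type and 2258 for knockout, 1.69-fold less, a log2 difference of -0.76. S100a14 went the other way, with 676 and 1262, a log2 difference of 0.87 (1.83-fold). S100a6, at 6995 and 7565, and S100a10, at 5956 and 5278, differed by 0.11 and -0.17. The probe sets of S100a1 again disagreed, with a difference of -0.52 (2322 and 1611) by the brighter and 0.00 (774 and 776) by the dimmer.

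**Figure D2:**
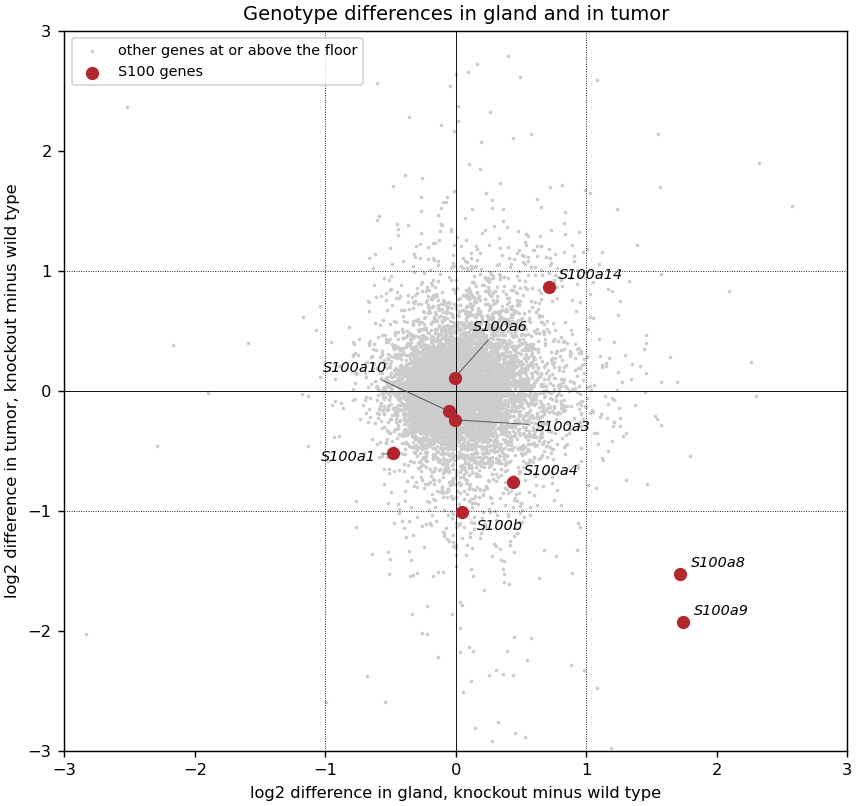
Log2 difference of knockout minus wild type in the gland (x axis) and in the tumor (y axis), 1 point per gene; red points are the 9 S100 genes, grey points the genes at or above the floor, and dotted lines mark 2-fold. S100a8 (1.72 and -1.53) and S100a9 (1.74 and -1.93) lie in the lower right, and 28 genes beyond 3 on either axis are not drawn.

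S100a8 and S100a9 were thus higher in the knockout gland and lower in the knockout tumor, and the difference of these differences was -3.25 for S100a8 and -3.67 for S100a9. With signals below the floor raised to it these values were -2.69 and -2.06, and with the median of all values as offset -2.24 and -2.19. Of all 12393 measured genes, 5 (0.0403%) were past 2-fold in this pair of directions, and 4 of the 8286 at or above the floor (0.0483%). Named after their values were seen, the other 3 were Lce1a1, a late cornified envelope protein, Osr1, a zinc finger transcription factor, and Cd207, the langerin of Langerhans cells. Lce1a1 had signals of 42 and 130 for the wild-type and knockout glands and 270 and 10.5 for their tumors. Osr1 had 44.8 and 125, then 961 and 151, and Cd207, which was below the floor on all arrays, had 11 and 77.5, then 159 and 42. All 3 were therefore below the floor in both glands, while S100a8 and S100a9 were above it in the knockout gland.

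In the tumors most genes of the neutrophil list were dim, with 17 of 22 below the floor for wild type and 18 for knockout. None of these genes was past 2-fold in the knockout tumor in either direction, and the median was 0.01. Over all measured genes 3.64% were past 2-fold in either direction, so a count of 0 in 22 is near the background. Ngp had 11.8 and 13.8 for wild type and knockout, Camp 82.9 and 61.6, Elane 3.6 and 4.6 and Csf3r 103 and 65.2. Clec4d, a lectin of myeloid cells, had 222 and 104.5. Of the 22 genes 12 were positive, among them Prtn3 at 66.8 and 147 and Pglyrp1 at 28.7 and 69.4, all below the floor. Of 15 macrophage genes 12 were negative and none was past 2-fold, with a median of -0.37; Csf1r, the receptor for colony-stimulating factor 1, had 5284 and 3352.

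Most measured genes of keratinising squamous epithelium were lower in the knockout tumor, while between the glands the median of their list was 0.02. Of 24 measured genes of the list 17 were lower in the knockout tumor, none was higher, and the median was -2.89; of the 24, 6 were below the floor for wild type and 21 for knockout, with summed signals of 14788 and 2148. The list holds 4 genes of the S100-fused type, large proteins that carry an S100 domain at the amino terminus. Flg (filaggrin) had signals of 217 and 5.0, Rptn (repetin) 793 and 11.6, Hrnr (hornerin) 224 and 0.1 and Tchh (trichohyalin) 294 and 28.9, wild type first. Krt6a, the keratin of hyperproliferative epidermis, was in the list but within 2-fold, at 1387 and 942. The part of squamous epithelium in the S100a8 and S100a9 difference was not tested.

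**Figure D3:**
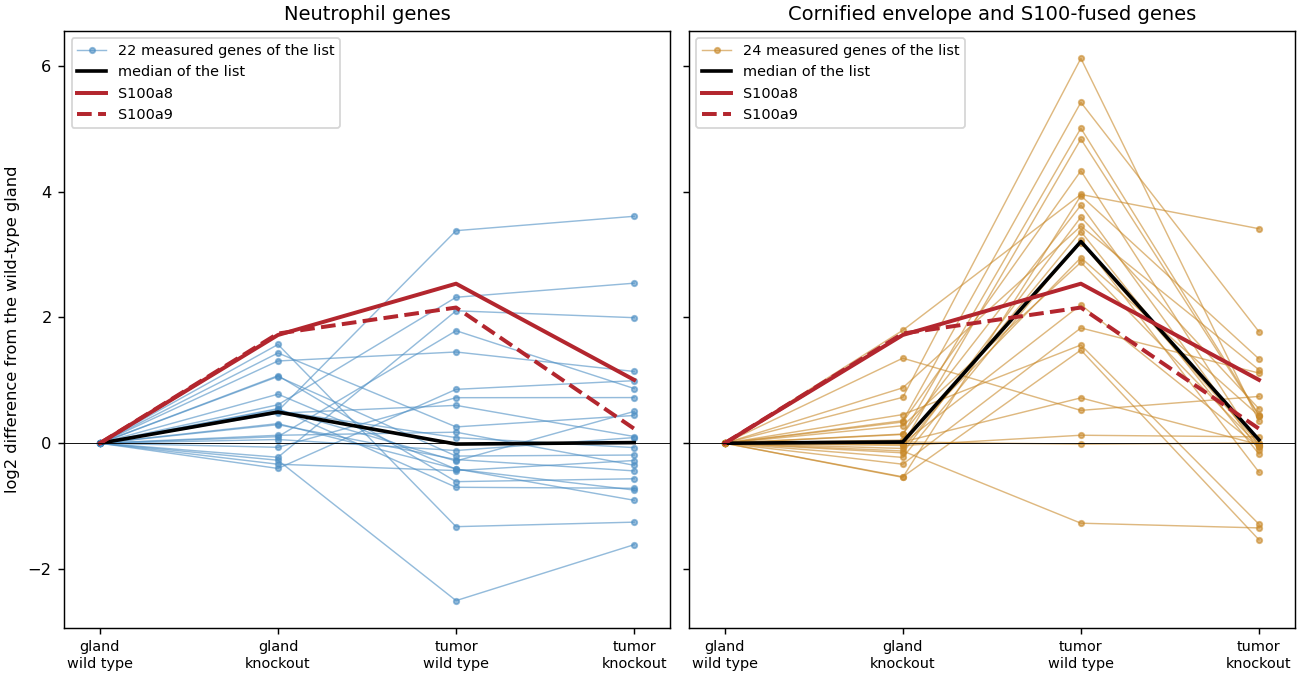
Log2 difference from the wild-type gland on each of the 4 arrays for S100a8 and S100a9 (red) beside all 22 measured neutrophil genes (left, blue) and all 24 measured genes of keratinising epithelium (right, yellow), with each list's median in black. In the knockout gland the neutrophil genes lie between -0.40 and 1.57 with a median of 0.50 and the skin genes between -0.54 and 1.80 with a median of 0.02, and in the wild-type tumor the skin genes have a median of 3.21.

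Tumor against gland asks which S100 genes were more abundant in the tumors within each genotype. This contrast joins the carcinogen and progestin treatment, age and tissue make-up, which cannot be told apart. In wild type, 5 of 9 measured genes were higher in the tumor and none was lower, where 10.1% of all measured genes and 13.1% of those at or above the floor were higher, and 15.8% and 16.7% were lower. In knockout, 1 was higher, S100a14, where the shares were 9.59% and 12.6%, and 1 was lower, S100a9, where they were 18.6% and 18%. The medians over the 9 genes were 1.11 in wild type and 0.14 in knockout, against -0.13 and -0.17 over all measured genes.

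S100a14 was higher in the tumor of both genotypes, 6.34-fold in wild type (83.6 and 676) and 7.12-fold in knockout (154 and 1262). It was the only 1 of the 9 genes past 2-fold in both, and 6.92% of all measured genes, or 9.46% of those at or above the floor, were higher in both. From lowest to highest, the signals of S100a14 stood in the order wild-type gland, knockout gland, wild-type tumor, knockout tumor, and only the tumors were above the floor. Epithelial genes were also more abundant in the tumors. Of 10 basal and myoepithelial genes 8 were higher in wild type and 7 in knockout, with medians of 2.18 and 1.46; Krt14, a basal keratin, had 624, 562, 4518 and 5448 in the same order of arrays. Of 13 luminal genes 4 and 7 were higher, with medians of 0.74 and 1.16; Muc1, a luminal mucin, had 131, 139, 644 and 860. The part of these cells in the S100a14 difference was not tested.

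S100a4 was 4.50-fold higher in the wild-type tumor (830 and 3832) and 1.97-fold in the knockout tumor (1135 and 2258), just inside 2-fold. From lowest to highest its signals stood in the order wild-type gland, knockout gland, knockout tumor, wild-type tumor, all above the floor. Fibroblast genes went mostly the other way. Of 14 measured, 7 were lower in the wild-type tumor and 1, Vim, was higher, with 9 lower and none higher in knockout and medians of -0.95 and -1.36. Macrophage genes had 8 of 15 higher and 4 lower in the wild-type tumor, and 2 higher and 3 lower in the knockout tumor, with medians of 1.01 and -0.08. Vim, the intermediate filament of mesenchymal cells and leukocytes, had 5340 and 7297 in the glands and 11034 and 5874 in the tumors, wild type first. The macrophage marker Cd68 had 371, 624, 1119 and 694. The part of these cells in the S100a4 difference was not tested.

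S100a8 was 5.81-fold higher in the tumor than in the gland of wild type, and 3.93-fold with low signals raised to the floor. In the knockout it was 1.64-fold less abundant in the tumor, 239 against 409. S100a9 was 4.46-fold higher in wild type, and 2.36-fold with low signals raised to the floor. In knockout it was 2.86-fold lower, 93.7 against 318. With the median of all values as offset that log2 difference was -0.89, and with low signals raised to the floor -0.82, both short of 2-fold. Both genes therefore had the wild-type tumor highest and the knockout gland next, while S100a9 was below the floor on the other arrays, where its order is not read. S100b was 2.15-fold higher in the wild-type tumor (214 and 492) and nearly level in knockout (222 and 230.5). Its second probe set had 74.6 and 84.8 in the glands and 224 and 91.6 in the tumors, wild type first, so that both probe sets had the wild-type tumor alone standing out.

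The lists of cells known to make S100b are given beside it, and their part in the S100b differences was not tested. White adipocyte genes were lower in the tumors, 11 of 11 in each genotype, with medians of -4.24 and -3.87. Of 11 Schwann cell and nerve genes, 4 were lower and 1 higher in each genotype, with medians of -0.53 and -0.64, where 1 of 11 is near the share of all genes that were higher. The gene that was higher was Sox10, a transcription factor of glia that mammary epithelium also makes, with 438 and 377 in the glands and 1087 and 844 in the tumors. Of the defining markers, Gfap was at 67.1 and 53.8 in the glands and 32.0 and 15.4 in the tumors, below the floor on all arrays, and Mbp, myelin basic protein, had 2648 and 2201 in the glands and 102 and 338 in the tumors.

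S100a1 was less abundant in the tumors, within 2-fold. The log2 difference was -0.62 in wild type by both probe sets and, in knockout, -0.66 by the brighter and -0.54 by the dimmer, and over the alternatives it ranged from -0.76 to -0.50 in wild type and from -0.88 to -0.33 in knockout. Skeletal muscle genes were lower in the tumor for 16 of 16 (wild type) and 15 of 16 (knockout), with medians of -6.18 and -5.94. Ryr1, the ryanodine receptor of skeletal muscle, had 944 and 996 in the glands and 7.2 and 12.1 in the tumors. The part of muscle in the S100a1 difference was not tested. S100a6 and S100a10 lay within 2-fold in each genotype, with differences of 0.15 and 0.28 for S100a6 and 0.27 and 0.14 for S100a10, and those of S100a6 and the knockout value of S100a10 changed sign under other scalings.

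**Figure D4:**
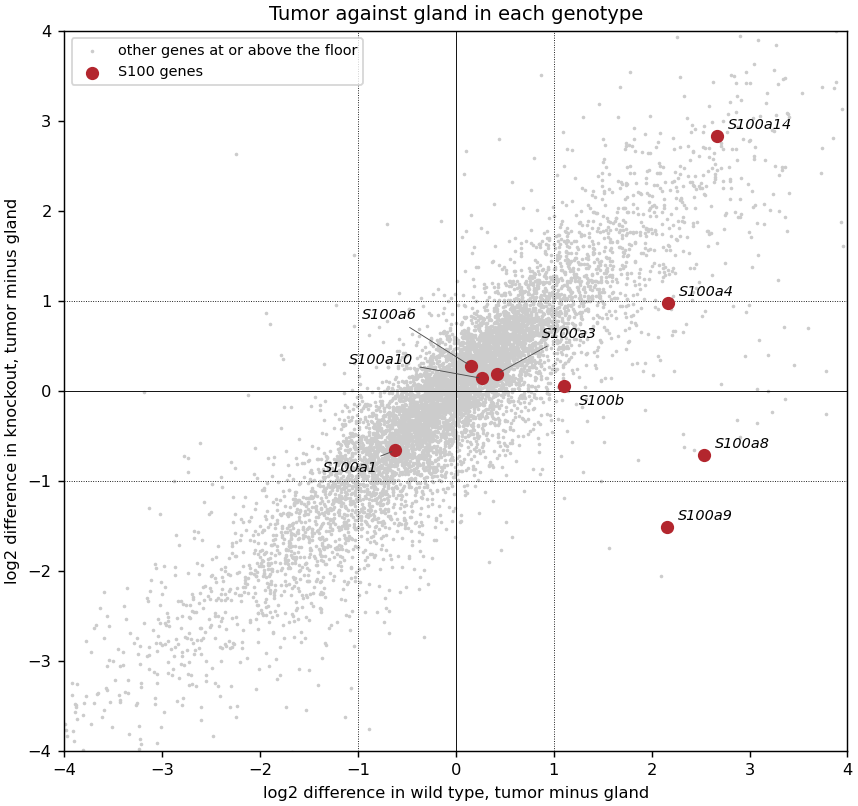
Log2 difference of tumor minus gland in wild type (x axis) and in knockout (y axis), 1 point per gene; red points are the 9 S100 genes, grey points the genes at or above the floor, and dotted lines mark 2-fold. S100a14 (2.67 and 2.83) lies with genes higher in both genotypes, S100a8 (2.54 and -0.71) and S100a9 (2.16 and -1.51) lie below the main cloud, and 164 genes beyond 4 on either axis are not drawn.

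**Figure D5:**
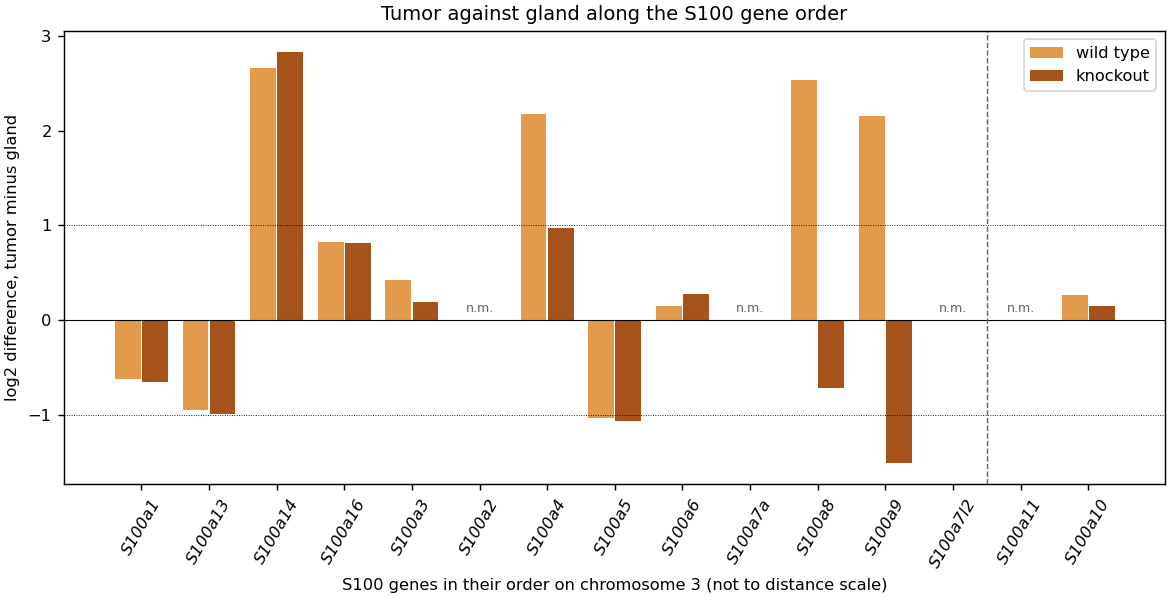
Log2 difference of tumor minus gland in wild type and knockout (bars) for the 15 S100 genes of chromosome 3 in their order along it; the dashed line marks the gap to S100a11 and S100a10, and n.m. marks genes with no probe set of their own symbol. S100a8 and S100a9 are neighbours with bars of opposite sign in the genotypes, while S100a14 lies beside S100a13, whose bars of -0.95 and -0.99 point the other way.

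Neighbours on the chromosome did not all move together. S100a14 stood 6.34-fold and 7.12-fold higher in the tumors, while its neighbours S100a13 and S100a16 differed by -0.95 and 0.82 in wild type and by -0.99 and 0.81 in knockout. S100a4 and S100a6 are separated only by S100a5, which was below the floor on all arrays, and in wild type they differed by 2.17 and 0.15.

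Of 11 measured binding partners of S100 proteins none was past 2-fold between genotypes in gland or tumor, with medians of 0.00 and -0.03. Over all measured genes 1.48% were past 2-fold in either direction in the gland and 3.64% in the tumor (1.38% and 4.07% of those at or above the floor), so a count of 0 in 11 is near the background. Anxa2, the annexin that S100a10 binds, had 5032 and 4944 in the glands and 7768 and 7401 in the tumors, wild type first. Ahnak, a large scaffold bound by the S100a10 and annexin A2 complex, had 6514 and 6342 in the glands and 4947 and 3724 in the tumors. Anxa1, a partner of S100a11, had 5585 and 5574, then 7928 and 10134. In each genotype 1 of the 11 was higher and 1 lower in the tumor, no more than the shares over all measured genes given above. The higher was Tagln2, an actin-binding protein, with 377 and 731 in the glands and 4042 and 4239.5 in the tumors. The lower was Anxa6, a calcium-dependent membrane-binding annexin, with 1826 and 2092, then 570.5 and 560.0. Myh9, the non-muscle myosin heavy chain that S100a4 binds, had 2674 and 2889.5 in the glands and 5350 and 4780 in the tumors, a log2 difference of 0.99 in wild type and 0.72 in knockout.

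Of 8 measured receptor genes for S100 proteins, of which Cd14 and Cd68 are also in the macrophage list, none was past 2-fold between genotypes, which is also near that background, with medians of 0.17 in gland and -0.17 in tumor. Tlr4, the pattern recognition receptor, had 221 and 223 in the glands and 204 and 213 in the tumors. Ager was below the floor on all arrays, with signals between 33.1 and 42.5. Cd14, a co-receptor of Tlr4, had 704 and 827 in the glands and 4831 and 4064 in the tumors. Cd36, a scavenger receptor that adipocytes also make in quantity, had 7706 and 7208 in the glands and 464 and 246 in the tumors. In wild type 3 of the 8 were higher in the tumor (Cd14, Cd68 and Alcam) and 1 was lower (Cd36). In knockout 2 were higher (Cd14 and Alcam) and 1 was lower (Cd36). Over all measured genes 10.1% were higher and 15.8% lower in wild type, and 9.59% and 18.6% in knockout.

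For the 6 S100 genes whose log2 values spanned at least 1 over the arrays, the genes with the most similar pattern were sought among 8172 named genes at or above the floor, by the root mean square difference of log2 values after each gene's own mean was subtracted. Over 4 arrays this is a description. The nearest gene to S100a8 was S100a9 (0.327) and the nearest to S100a9 was S100a8 (0.327). After it came Emp3 (0.344) and Ehd2 (0.396) for S100a8 and Rcn3 (0.417) and Lce1a1 (0.446) for S100a9. S100a4 was nearest to Bgn, the matrix proteoglycan biglycan (0.044), followed by the Fc receptor genes Fcer1g (0.080) and Fcgr1 (0.080). Bgn had 1511 and 2124 in the glands and 7144 and 4435 in the tumors. S100a14 was nearest to Nkd2 (0.065), an inhibitor of Wnt signalling, Fst (0.096), the activin antagonist follistatin, and Cdca3 (0.118), a cell division gene. S100b was nearest to Sorl1 (0.074), Timp3 (0.080), a metalloproteinase inhibitor, and Sh3bp5 (0.095), and S100a1 to Dleu2 (0.039), Ypel5 (0.054) and Ankrd24 (0.054). The pattern of S100a1 is that of its brighter probe set, which spanned 1.14 and is of a type that can be shared between transcripts. The dimmer probe set of S100a1 spanned 0.62, short of 1. The distances of S100a8 and S100a9 to their nearest genes were larger than those of the other 4, and S100a4 stood at rank 94 and S100b at rank 117 in likeness to S100a8.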

How the data were processed

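Per the labels' protocols, mammary tissue was kept in RNAlater, RNA was pooled in equal amounts from 5 mice per group, and biotin-labelled cRNA was hybridised to Affymetrix arrays. The deposited values are linear intensity values, 1 per probe set (22690 per array); the sources used here do not name the software. The values were used as deposited. Symbols are those of the array's annotation table, brought up to date through RefSeq gene identifiers (20351 probe sets); probe sets with several symbols (691) and the array's control probe sets were left out. Where a gene had several probe sets, the brightest on average stood for it. The log2 offset of 27.3 is the lower quartile of all values. No test was made and no p-value is given. Counts and patterns were checked on simulated data.

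The 10 genes were fixed by symbol; they and the 16 other gene lists were chosen with earlier results of these data known, so they are no independent support. All measured S100 genes were named, with partners of a member, low defining markers, and the 3 genes nearest in pattern to each member spanning 1 in log2. The plan to name up to 4 genes of each list by size of difference was not kept for every list. Of the cornified envelope list, Calm4 (2625 and 21.3 in the tumors, wild type first) and Krt1 (894 and 11.7) differed more than the genes named above. Further list genes (Krt6a, Tgm1, Vim, Krt14, Muc1, Cd68, Csf1r, Ryr1, Sox10, Mbp, Myh9 and others) were chosen after their values were seen. Of 10 control genes, none was past 2-fold between genotypes, near the shares of 1.48% (gland) and 3.64% (tumor) over all measured genes. Actb came close between the glands, at 1317.5 for wild type and 2577.5 for knockout (1.94-fold). In tumor against gland 1 control was higher (Actb) and 1 lower (Sdha) in wild type, and 1 was higher (Actb) in knockout. In all, 9 alternatives were tried, with quantile normalization and cyclic loess from limma 3.58.1 in R 4.3.3; Python 3.11.15 and pandas 2.3.3 did the rest.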

Additional observations from a re-analysis of the deposited data

Results flagged for a closer look

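S100a8 and S100a9 stood apart in that their genotype difference was past 2-fold in both tissues, with opposite signs. S100a4 also had opposite signs, 0.44 in gland and -0.76 in tumor, but within 2-fold in each. Its difference in tumor minus that in gland was -1.20, and that of S100b was -1.06. On the log2 scale this value was -3.25 for S100a8 and -3.67 for S100a9. With signals below the floor raised to it the values of S100a8 and S100a9 were -2.69 and -2.06, and with the median of all values as offset -2.24 and -2.19. With 1 array per group the difference between tissues was not tested. S100a8 had its only probe set of a type that can be shared between transcripts, and it was below the floor in the wild-type gland, as was S100a9, which was also below it in the knockout tumor.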

How the results depend on the processing

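No paired analysis was possible because each group was 1 array. Of 9 alternatives, 8 were listed beforehand, and raising signals below the floor to it was chosen after seeing the data. The count of S100 genes past 2-fold kept within 1.5 times its value in wild-type tumor against gland (5) and between the tumors (3) under all 9. Between the glands it was 2 and became 1 with the median of all values as offset, 1 with low signals raised to the floor (S100a9 was then at 0.82) and 1 without probe sets that may be shared, which leaves out S100a8 and S100a6 altogether. For knockout tumor against gland it was 2 and became 1 with the median as offset, where S100a9 was at -0.89, and 1 with low signals raised. No S100 gene past 2-fold changed sign under any alternative run. S100a4 in knockout tumor against gland, 0.98, reached 1.30 with arrays centred on their medians. S100b between the tumors ranged from -1.09 to -0.73 and was past 2-fold in 5 of the 7 alternatives listed beforehand that bear on single genes. The difference of S100a6 in wild-type tumor against gland ranged from -0.10 to 0.27, and in knockout from -0.13 to 0.61. Median centring moved the median of all genes at or above the floor to -0.21 between the glands and to 0.29 in knockout tumor against gland. The S100a8 difference between the glands, 1.72, was 1.08 with the median as offset and 1.16 with low signals raised. Dim signals limit S100a3, S100a8, S100a9 and S100a14 in the glands.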

Other observations

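S100 genes outside the chosen 10 were measured too. S100a16, an epithelial member next to S100a14, had signals of 2842 (wild type) and 2461 (knockout) for the glands and 5054 and 4338 for the tumors, within 2-fold in every comparison made. S100a13, known for a role in the release of growth factors that lack a signal peptide, had 2882, 2376, 1482 and 1179 in the same order and was also within 2-fold. S100pbp, which encodes a binding protein of S100 proteins, had 678, 654, 423 and 432.5. S100a5, with 44.4, 58.4, 7.6 and 13.5, and S100g, the vitamin D dependent calcium-binding protein calbindin-D9k, with 3.0, 1.7, 4.6 and 35.3, were below the floor on all arrays. None of these 5 genes was past 2-fold between genotypes in gland or tumor.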
